A study of Homo sapiens with 11 samples.

Results

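Genes of HLA class I antigen presentation were described across stable transfectants of A549 and HCC827, established human lung adenocarcinoma cell lines. They were taken by name and are HLA-B, HLA-C, HLA-E, B2M, TAP1, TAP2, PSMB8, PSMB9 and NLRC5, which make up 9 of the 20249 genes that the array's probes named, and all 12 of their probes were read. The A549 mock and HCC827 mock cells had been infected with the empty retroviral vector pMXs-Neo. The A549 TRIM58-WT and HCC827 TRIM58-WT cells carried the same vector with the FLAG-tagged coding sequence of wild-type TRIM58, a tripartite motif ubiquitin ligase, and all cells were selected with G418. The study compared them to ask what restored TRIM58 does in cells that lack it. A549 had 3 mock replicates on 4 arrays and 3 TRIM58-WT replicates on 3 arrays, and HCC827 had 2 replicates on 2 arrays in each group. The methods describe clones that were isolated and subcultured after selection, and name HCC827 crude transfectants in growth assays. Which kind was put on the arrays is not given in the sources used here, and nothing says that replicates came from separate cultures, so p-values measure only the spread between these samples.

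HLA class I molecules show peptides from inside the cell to T cells and natural killer cells. HLA-B and HLA-C are classical heavy chains, HLA-E is the heavy chain read by the NKG2 receptors of natural killer cells, and B2M is the light chain that all class I heavy chains need to reach the surface. TAP1 and TAP2 form the transporter that carries peptides into the endoplasmic reticulum, PSMB8 and PSMB9 are catalytic subunits of the immunoproteasome that cuts them, and NLRC5 is the transactivator of class I promoters. Interferons raise these genes together, and lung tumours can lower them.

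The promoters below are shown because levels of the genes varied together across the A549 samples. They are the 250 bases before the RefSeq start of 4 of the genes (build GRCh38.p14), written 5′ to 3′ on the gene's strand. Capitals mark letters that match 1 of 5 motifs on either strand, where neighbouring matches run together. The long response element motif is GAAA, any 2 bases and GAAA, and the short one is GAA, any 2 bases and GAAA, after the interferon-stimulated response element. The kappa B motif is GGGA, any 4 bases and CC, and the others are TGACGC (X2) and CCAAT (Y). HLA-B was read at chr6:31357180-31357429 and HLA-C at chr6:31272093-31272342, both on the minus strand. B2M was read at chr15:44711267-44711516 on the plus strand and TAP1 at chr6:32853705-32853954 on the minus strand.
HLA-B: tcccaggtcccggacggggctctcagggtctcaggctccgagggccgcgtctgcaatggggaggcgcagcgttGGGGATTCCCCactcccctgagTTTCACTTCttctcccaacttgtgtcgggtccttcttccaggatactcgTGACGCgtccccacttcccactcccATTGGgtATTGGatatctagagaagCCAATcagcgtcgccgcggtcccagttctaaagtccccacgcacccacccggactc
HLA-C: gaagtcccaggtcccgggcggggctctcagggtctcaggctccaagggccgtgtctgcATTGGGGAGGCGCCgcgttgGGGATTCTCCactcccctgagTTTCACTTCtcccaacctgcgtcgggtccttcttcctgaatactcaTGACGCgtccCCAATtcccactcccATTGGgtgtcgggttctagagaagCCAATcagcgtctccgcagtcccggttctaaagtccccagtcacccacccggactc
B2M: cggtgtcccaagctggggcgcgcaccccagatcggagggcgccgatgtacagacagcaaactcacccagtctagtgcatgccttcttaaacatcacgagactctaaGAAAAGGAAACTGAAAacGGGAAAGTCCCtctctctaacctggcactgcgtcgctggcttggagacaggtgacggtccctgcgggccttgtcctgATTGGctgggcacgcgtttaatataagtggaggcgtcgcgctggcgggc
TAP1: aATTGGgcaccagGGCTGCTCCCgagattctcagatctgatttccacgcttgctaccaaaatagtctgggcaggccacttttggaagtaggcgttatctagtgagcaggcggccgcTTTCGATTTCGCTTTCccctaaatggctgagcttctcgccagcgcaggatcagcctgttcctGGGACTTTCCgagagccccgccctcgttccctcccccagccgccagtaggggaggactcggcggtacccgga
Of the 9 genes, 7 had an entry in the promoter table, with 9 windows in all. HLA-E and NLRC5 were not found there. The long response element motif stood in windows of 3 of these genes (B2M, TAP1 and TAP2) and in 3.02% of all 35116 windows of this length. The short one stood in those of 3 (HLA-B, HLA-C and TAP2) and in 6.56% of all windows, and overlaps the longer form in TAP2. Together, 5 of the 7 genes had either form, against 9.08% of all windows. Genes are counted here by any of their windows, so the shares of windows are not a like-for-like measure. No window of PSMB8 or PSMB9 had either form, and the TAP1 window not shown held none of the 5 motifs. Over all 10 replicates, r with the mean of the other genes was 0.94 for PSMB8, 0.95 for PSMB9 and 0.11 for TAP1. The other genes with either form had r from 0.84 to 0.96. These values pool both lines, and r within A549 alone is not given here. TAP1 had its lowest mean in HCC827 mock (2.88). Within A549, TAP1 was highest in mock replicates 1 and 2 (4.74 and 4.92). It was lower in mock replicate 3 (3.71) and in TRIM58-WT (3.32 to 3.47). The part of these motifs in the levels was not tested. TGACGC stood in 3 genes and 7.67% of all windows, the kappa B motif in 4 genes and 22.6%, and CCAAT in 5 genes and 32% of all windows. Towards the start, the HLA-B and HLA-C windows both held the kappa B motif, the short response element motif, TGACGC and CCAAT in this order, and HLA-C had a further CCAAT and kappa B motif upstream that overlap each other. The windows of TAP1 and PSMB9, which are transcribed away from each other, shared 13 bases at their far ends. The CCAAT match of TAP1 and that of PSMB9 are the same site in these bases, counted for both genes. A match of letters is a description of the window and no evidence of binding.

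Levels are log2 signals with the 75th percentile of each array set to 0, and they were compared between samples of 1 probe and never between genes. TRIM58 itself, on a single probe (A_33_P3249414), exceeded background clearly (by the scanner software's own call) only on the array of A549 mock replicate 3, at -0.71. No array labelled TRIM58-WT had it well above background, and it read -4.84 to -4.63 in A549 and -5.64 to -5.38 in HCC827. The vector holds only the coding sequence, and where the probe lies in the transcript is not given in the sources used here, so the probe checks the TRIM58-WT labels only if it lies inside that sequence. The signal on A549 mock replicate 3 was seen on no other mock array. Whether it goes against the label cannot be told without the probe's place. Over the 13888 probes well above background on all arrays, A549 mock replicate 3 differed from the arrays of mock replicates 1 and 2 with an SD of 0.589 to 0.691 (log2), whereas those 3 arrays differed from each other by 0.243 to 0.367. It differed from TRIM58-WT replicates 2 and 3 by 0.512. TRIM58-WT replicates 2 and 3 differed by 0.194, less than the arrays 1-1 and 1-2 of the same mock cells (0.243), and TRIM58-WT replicate 1 stood at 0.688 to 0.779 from every other A549 array. The differences of the class I genes and the medians of the gene lists between A549 TRIM58-WT and mock are therefore given with and without mock replicate 3, and an average of TRIM58-WT replicates 2 and 3 as 1 replicate was also tried. Mock replicate 3 was singled out after the data had been seen. It is also the mock replicate in which the class I genes read lowest, so leaving it out widens their differences by construction. Per array, 40.1% to 50% of probes passed this call, and no spot was saturated. The arrays of A549 mock replicate 3 and TRIM58-WT replicates 2 and 3 were dimmer than all others. Their 75th percentile signals were 60.3, 62.5 and 56.6, against 90.5 to 125 elsewhere and 103 on mock array 1-2 of the same slide. They also had the fewest probes passing (40.5%, 40.1% and 40.4%). The part of this lower signal in the class I levels was not tested. KRT8 and KRT18, keratins of simple epithelia, were well above background on all arrays. The epithelial markers EPCAM and KRT19 were so on all mock arrays, but in A549 TRIM58-WT EPCAM was so on 1 of 3 arrays and KRT19 on 0 of 3. EPCAM measured 2.72, 2.78 and 0.59 in A549 mock replicates 1, 2 and 3 against -2.0, -3.45 and -3.08 in TRIM58-WT (adjusted p = 0.0117, and 0.00213 without mock replicate 3), and KRT19 7.30, 7.52 and 6.11 against -2.56, -2.47 and -2.56 (adjusted p = 0.000151, and 6.28e-05 without it). The summed signal of 10 epithelial and lung markers was 1020 to 1320 times the 75th percentile in A549 mock, 553 to 663 times in A549 TRIM58-WT, 933 to 946 times in HCC827 mock and 1060 to 1210 times in HCC827 TRIM58-WT. No A549 array had the lung markers NKX2-1 and SFTPB well above background. Of 6 mesenchymal markers the summed signal was 26.2 to 179 times in A549 mock, 94.6 to 366 times in A549 TRIM58-WT, 2.18 to 2.76 times in HCC827 mock and 4.92 to 7.21 times in HCC827 TRIM58-WT. Of 10 leukocyte markers, CD3E, MS4A1, ITGAM and LAPTM5 passed on no array, and the summed signal was 4.31 to 5.2 times in A549 mock, 2.35 to 2.72 times in A549 TRIM58-WT, 41.8 to 43.3 times in HCC827 mock and 42.9 to 50 times in HCC827 TRIM58-WT. The part of these markers, and of the samples that stand apart, in the results for the class I genes was not tested.

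In A549 cells, 8 of the 9 genes could be tested between TRIM58-WT and mock, and all 8 were lower on average in TRIM58-WT, by 0.46 to 1.70 on the log2 scale. None was called by limma at an adjusted p under 0.05 and a 2-fold change, while 6.92% of all 16920 probes tested were called. At an unadjusted p under 0.05, 2 of the 8 passed (HLA-B and TAP1), beside 25.3% of all probes. In mock replicate 3 the genes lay near the TRIM58-WT cells, at or below the highest TRIM58-WT replicate for all but TAP1. The median difference of the 8 genes was -1.04, beside 0.03 for all 11179 genes tested, of which 47.6% were lower. As these are bulk samples, fewer cells that carry a transcript and less transcript per cell cannot be told apart.

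HLA-B measured 4.82, 4.97 and 2.62 in mock replicates 1, 2 and 3, and 2.87, 2.14 and 2.32 in TRIM58-WT replicates 1, 2 and 3 (probe A_33_P3424800). Mock replicates 1 and 2 stood above the other 4 replicates, and mock replicate 3 fell within the range of TRIM58-WT. The mean difference was -1.70 ± 0.64 (standard error), or 3.24-fold lower, with an adjusted p of 0.161. The other HLA-B probe, A_33_P3379947, gave 4.45 and 4.56 on the 2 arrays of mock replicate 1, then 4.34 and 1.42, against 2.55, 0.56 and 0.82, a difference of -2.11 ± 0.94 (adjusted p = 0.226). HLA-C measured 4.61, 4.78 and 2.35 in mock against 3.70, 1.75 and 1.91 in TRIM58-WT. Again only mock replicates 1 and 2 stood above every TRIM58-WT replicate, and TRIM58-WT replicate 1 lay between them and the rest. The difference was -1.46 ± 0.80 (adjusted p = 0.323). HLA-E, whose heavy chain presents peptides cut from the signal sequences of other class I chains, measured 4.83, 5.01 and 3.11 in mock against 3.94, 2.91 and 2.99 in TRIM58-WT. Its difference was -1.04 ± 0.56 (adjusted p = 0.314), and mock replicate 3 overlapped TRIM58-WT. B2M, the light chain, measured 6.85, 6.88 and 4.69 in mock against 5.80, 4.48 and 4.70 in TRIM58-WT. Mock replicate 3 was thus below TRIM58-WT replicate 1 and level with replicate 3, and the difference was -1.14 ± 0.67 (adjusted p = 0.355).

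The transporter genes differed from each other in this pattern. TAP1 measured 4.74, 4.92 and 3.71 in mock against 3.32, 3.44 and 3.47 in TRIM58-WT. It was the only one of the 8 genes whose groups did not overlap, a state that 15.1% of all probes tested showed in the same direction. The difference was -1.04 ± 0.33, or 2.06-fold lower, with an adjusted p of 0.109. TRIM58-WT replicate 1, which lay between the high and the low replicates for the other genes, was the lowest replicate for TAP1. TAP2 measured 1.33, 1.61 and 0.21 in mock against 0.94, 0.02 and 0.30 in TRIM58-WT (probe A_33_P3214650), a difference of -0.63 ± 0.42 (adjusted p = 0.424). Its other probe, A_23_P368067, passed the background call on no array.

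The immunoproteasome genes followed HLA-C and B2M with smaller differences. PSMB8 measured 2.16, 2.20 and 0.10 in mock against 1.60, 0.49 and 0.54 in TRIM58-WT, so that mock replicate 3 was the lowest of all 6 replicates. Its difference was -0.61 ± 0.63 (adjusted p = 0.604). PSMB9 measured 3.78, 4.14 and 2.68 in mock against 3.29, 2.92 and 3.00 in TRIM58-WT, again with mock replicate 3 lowest. Its difference was -0.46 ± 0.38 (adjusted p = 0.511). NLRC5 was dim in A549 and was not tested there. Its brighter probe, A_32_P416583, passed the background call on 2 of the 4 mock arrays and on 0 of the 3 TRIM58-WT arrays, and its other probe on no A549 array. It read -3.00, -2.99 and -4.24 in mock against -3.38, -2.44 and -2.84 in TRIM58-WT, values with no set order at this level.

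**Figure D1:**
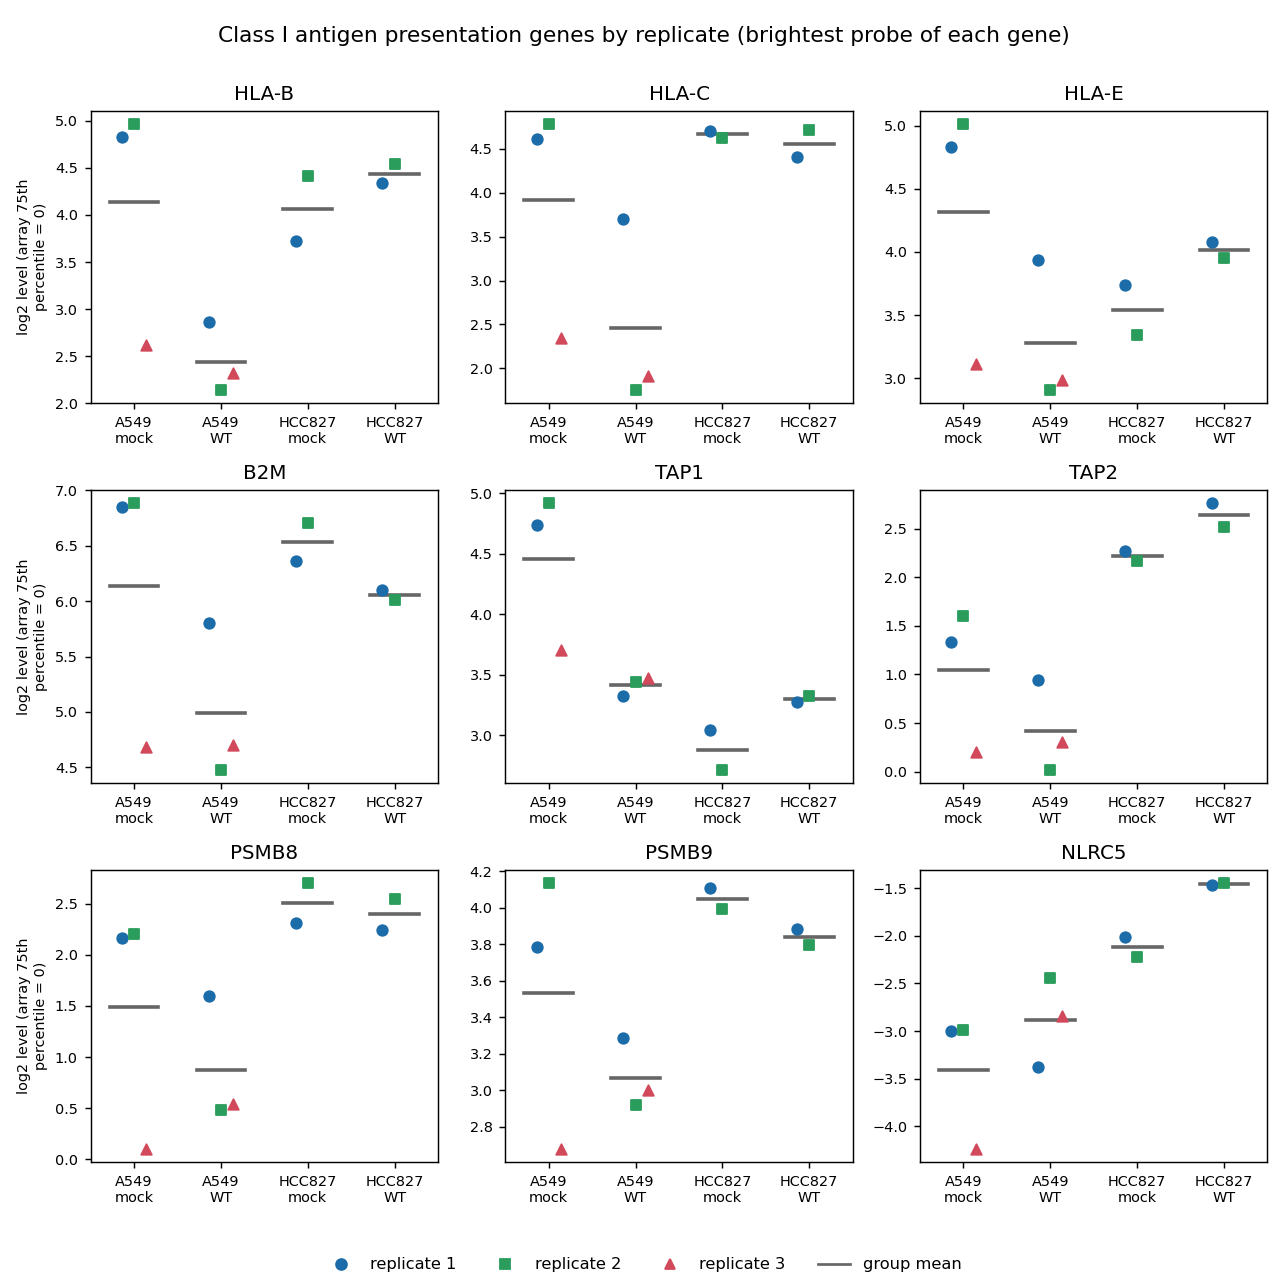
Each point is 1 replicate of the group on the x axis (WT is TRIM58-WT), the y axis gives the log2 level with the array's 75th percentile at 0 (the scale differs between panels), and lines mark group means. In A549, mock replicates 1 and 2 lie high and mock replicate 3 lies with the TRIM58-WT replicates for HLA-B, HLA-C, HLA-E, B2M, TAP2, PSMB8 and PSMB9, whereas the HCC827 groups lie close together.

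Without A549 mock replicate 3, all 8 genes had groups that did not overlap and were lower in TRIM58-WT, beside 23.1% of all probes that did so in this direction. Of these, 4 were then called lower, where 5.24% of all probes tested were called lower and 11.6% were called in either direction. HLA-B was 5.49-fold lower (log2 difference -2.46 ± 0.26, adjusted p = 0.00486) and its other probe was also called (-3.11 ± 0.62, adjusted p = 0.0312). B2M was 3.65-fold lower (-1.87 ± 0.42, adjusted p = 0.0419), HLA-E was 3.13-fold lower (-1.65 ± 0.36, adjusted p = 0.0376) and TAP1 was 2.67-fold lower (-1.42 ± 0.16, adjusted p = 0.00623). HLA-C (-2.24 ± 0.62, adjusted p = 0.072), PSMB8 (-1.31 ± 0.38, 0.0802) and TAP2 (-1.05 ± 0.31, 0.0851) missed the threshold. PSMB9 passed on the p-value (0.0456) but its change of 1.85-fold was under 2-fold. The median of the 8 genes was -1.53 without that replicate. It was the lowest mock replicate for all 8 genes, so its removal widened every difference by construction. Leaving out any other single replicate gave no call. The fit without mock replicate 3 counts TRIM58-WT replicates 2 and 3 as separate. They differed by 0.194, less than the 2 arrays of the same mock cells (0.243), so its p-values may rest on fewer independent samples. With all mock replicates and TRIM58-WT replicates 2 and 3 averaged, the differences ran from -0.41 for PSMB9 to -1.59 for HLA-B and none was called. This average was not tried without mock replicate 3.

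The arrays lay on 2 slides. Slide 1 held array 1-1 of mock replicate 1, mock replicate 2 and TRIM58-WT replicate 1, and slide 2 held array 1-2, mock replicate 3 and TRIM58-WT replicates 2 and 3. All HCC827 arrays were on slide 1, so slide was split within A549 but not within HCC827. The comparisons between the lines carry this imbalance. In A549 all 8 differences were negative within both slides. Within slide 1 they ran from -0.54 for TAP2 to -1.98 for HLA-B, and HLA-B, HLA-C, B2M and TAP1 were called, with a single TRIM58-WT array whose spread had to be taken from the mock arrays. In that fit 6.73% of all probes were called lower. Within slide 2 they ran from -0.23 for PSMB9 to -1.63 for HLA-C, with none called, beside 2.47% of all probes called lower. With slide as a block TAP1 alone was called (-1.05, adjusted p = 0.038), beside 5.25% of all probes called lower. Arrays 1-1 and 1-2, which are the same cells on different slides, gave 4.72 and 4.93 for HLA-B and 4.65 and 4.57 for HLA-C. For both genes mock replicates 1 and 3 differed by more than these arrays of the same cells did.

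**Figure D2:**
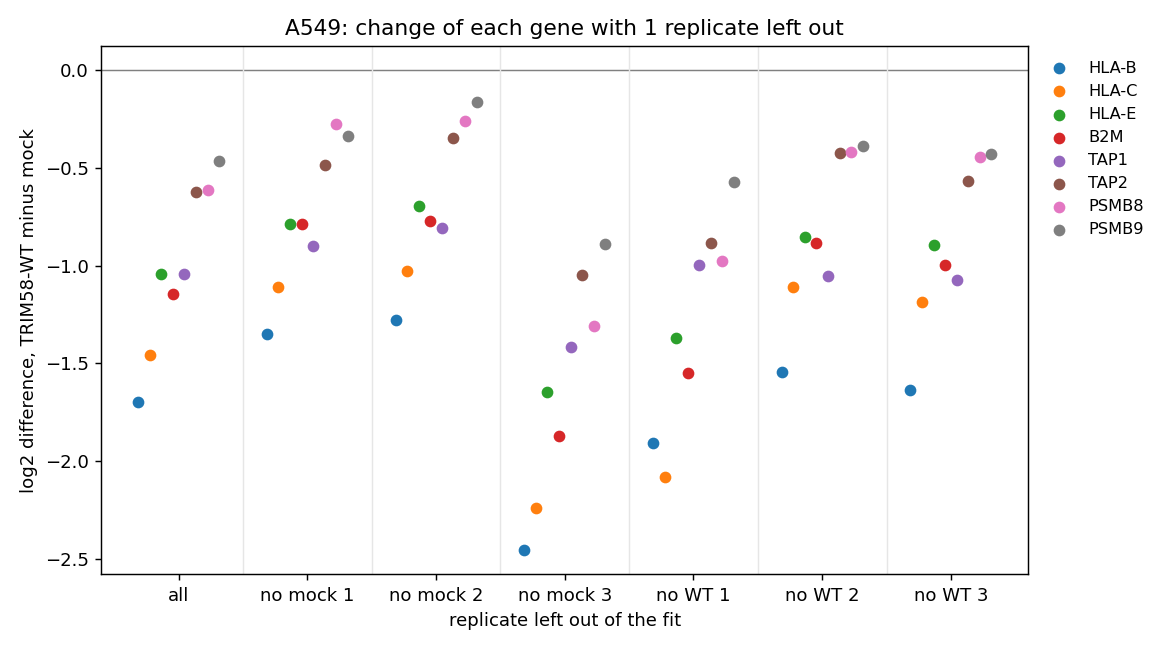
Each point is the log2 difference of 1 gene between A549 TRIM58-WT and A549 mock (y axis) with all replicates or with the replicate on the x axis left out (WT is TRIM58-WT). All values lie below 0, and the lowest value of each gene comes without mock replicate 3, where HLA-B reaches -2.46.

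In HCC827 cells no gene of the 9 was called, beside 0.885% of all 19542 probes tested, and the differences between TRIM58-WT and mock ran from -0.48 to 0.67 on the log2 scale. The largest was that of NLRC5, the class I transactivator, which measured -2.02 and -2.23 in mock against -1.47 and -1.44 in TRIM58-WT. Both TRIM58-WT replicates were above both mock replicates, with a difference of 0.67 ± 0.14 (1.59-fold) and an adjusted p of 0.122. The other NLRC5 probe, A_23_P26583, read -4.21 and -3.34 in mock against -3.05 and -3.46 in TRIM58-WT, so that its groups overlapped. It passed the background call on 0 of 2 mock and 1 of 2 TRIM58-WT arrays and was not tested. At an unadjusted p under 0.05, 3 of the 9 genes passed (NLRC5, B2M and TAP2), as did 20.3% of all probes tested.

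HLA-E measured 3.73 and 3.34 in mock against 4.08 and 3.95 in TRIM58-WT, a difference of 0.48 ± 0.19 (adjusted p = 0.26). TAP1 measured 3.05 and 2.72 against 3.28 and 3.32 (0.42 ± 0.17, adjusted p = 0.267), and TAP2 2.27 and 2.17 against 2.76 and 2.52 (0.42 ± 0.15, adjusted p = 0.235). These genes and NLRC5 were the 4 whose groups did not overlap and were higher, a state that 29.6% of all probes tested showed. B2M measured 6.36 and 6.70 in mock against 6.10 and 6.01 in TRIM58-WT, a difference of -0.48 ± 0.17 (adjusted p = 0.235). PSMB9 measured 4.11 and 3.99 against 3.88 and 3.80 (-0.21 ± 0.13, adjusted p = 0.426). B2M and PSMB9 were the 2 genes whose groups did not overlap and were lower, beside 27.1% of all probes. The groups overlapped for HLA-C (4.70 and 4.63 against 4.40 and 4.71) and PSMB8 (2.31 and 2.70 against 2.25 and 2.55). Their 95% intervals of the difference were -0.55 to 0.33 for HLA-C and -0.67 to 0.44 for PSMB8. The HLA-B probes disagreed in direction. A_33_P3424800 measured 3.72 and 4.41 against 4.34 and 4.54 (0.37 ± 0.27, adjusted p = 0.471), and A_33_P3379947 measured 4.03 and 3.96 against 3.22 and 4.02 (-0.37 ± 0.30, adjusted p = 0.501). On the first probe the 2 spots of mock replicate 1 differed by 2.18 (log2), and on the second those of TRIM58-WT replicate 1 differed by 1.30, whereas the median range between spots was 0.135 and 0.134 over all arrays. The spots of PSMB8 in mock replicate 1 differed by 1.29.

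**Figure D3:**
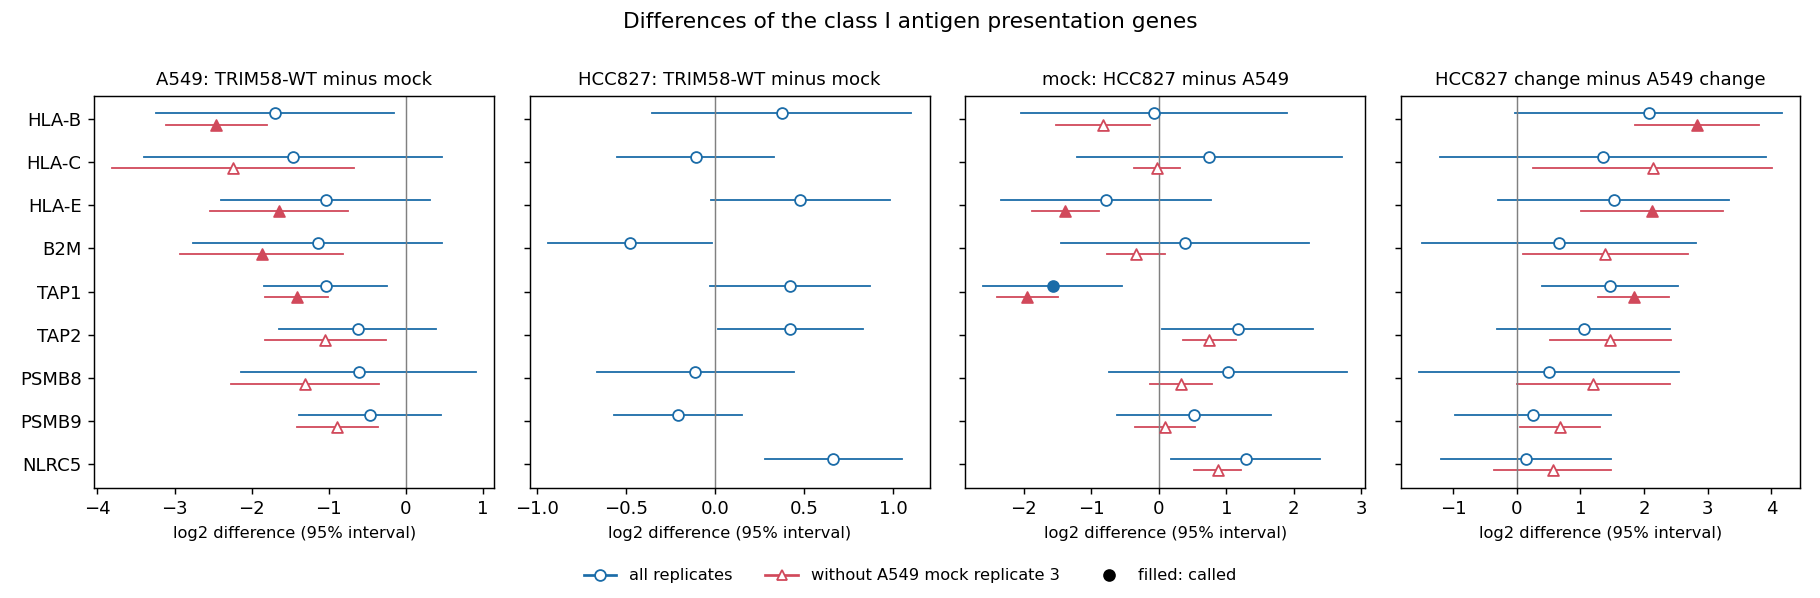
Points are log2 differences (x axis, with a scale that differs between panels) of each gene (y axis) in the 4 comparisons with 95% intervals from limma, as circles for all replicates and as triangles without A549 mock replicate 3, which does not enter the HCC827 panel, and filled points were called. TAP1 between the mock cells is the only filled circle, and without mock replicate 3 HLA-B, HLA-E, B2M and TAP1 are filled in A549, HLA-E and TAP1 between the mock cells, and HLA-B, HLA-E and TAP1 in the difference between lines.

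Between the mock cells of both lines, TAP1 was the only gene of the 9 called, at 2.98-fold lower in HCC827 (log2 difference -1.57 ± 0.41, adjusted p = 0.0295), beside 30.3% of all 19499 probes tested. This comparison and the difference between lines use the same A549 mock replicates as the comparison within A549. TAP1 measured 3.05 and 2.72 in HCC827 mock, below every A549 mock replicate, as 32.3% of all probes tested were. The call was lost when either of A549 mock replicates 1 and 2 or of the HCC827 mock replicates was left out, with adjusted p between 0.0651 and 0.158. It was 0.00117 without A549 mock replicate 3 (-1.95) and 0.0013 within the slide that held both groups (-2.0). TAP2 (1.17 ± 0.44, adjusted p = 0.0862), NLRC5 (1.29 ± 0.43, 0.0646) and PSMB8 (1.02 ± 0.70, 0.286) were above every A549 mock replicate in HCC827 mock, as 37.4% of all probes tested were. NLRC5 was well above background on only 2 of 4 A549 mock arrays and entered this test through HCC827 mock. The size of its difference is therefore not settled. Without A549 mock replicate 3, HLA-E was also called lower in HCC827, by 2.61-fold (-1.38 ± 0.18, adjusted p = 0.00407), with 32.8% of all probes called. HLA-C and B2M then changed from higher to slightly lower in HCC827 (-0.03 and -0.33, neither called), as they did within the shared slide.

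Over the 4 groups, A549 TRIM58-WT had the lowest mean for 7 genes. For HLA-B and B2M its replicates lay wholly below the next lowest group, which was HCC827 mock for HLA-B and HCC827 TRIM58-WT for B2M. They still overlapped the A549 mock replicates for both genes, and how many of all probes had such an order was not counted. For HLA-C, HLA-E, TAP2, PSMB8 and PSMB9 the range of A549 TRIM58-WT overlapped that of the next lowest group. TAP1 had the order A549 mock, A549 TRIM58-WT, HCC827 TRIM58-WT and HCC827 mock, with no overlap between neighbours, although the gap of 0.11 between the TRIM58-WT groups was smaller than the pooled SD of 0.39. For NLRC5, on its brighter probe, both HCC827 groups lay above both A549 groups, with HCC827 TRIM58-WT highest. On the other probe, A_23_P26583, which passed the background call on no A549 or HCC827 mock array, the mean of A549 TRIM58-WT (-3.24) was above that of HCC827 mock (-3.77).

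The difference of the TRIM58-WT change between the lines (the HCC827 change minus the A549 change) was positive for all 9 genes, from 0.14 for NLRC5 to 2.07 for HLA-B, with a median of 1.05 beside -0.02 for all genes tested. None was called at an adjusted p under 0.05, beside 3.85% of all 20617 probes, and 1 (TAP1) passed at an unadjusted p under 0.05, beside 18.4% of all probes. TAP1 had the lowest adjusted p (1.46 ± 0.47, 0.137), followed by HLA-B (2.07 ± 0.92, 0.278) and HLA-E (1.52 ± 0.79, 0.357). Without A549 mock replicate 3, TAP1 (1.83 ± 0.24, adjusted p = 0.0037), HLA-B (2.83 ± 0.42, 0.0065) and HLA-E (2.12 ± 0.48, 0.0329) were called, beside 10.1% of all probes. The second HLA-B probe gave 2.74 ± 0.84 and missed the threshold (adjusted p = 0.0885). The value of NLRC5 rests on A549 TRIM58-WT arrays that did not show it well above background.

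The other genes of the pathway are given by lists taken by name. Of 17 regulators of class I transcription, 14 were tested in A549 and none was called (median -0.02, 7 of 14 lower). Without mock replicate 3 the median was still -0.02 with 7 of 14 lower, and IRF9 and IRF1 were among the genes called lower, as 5.24% of all probes were. IRF9, a subunit of the complex that binds the response element, measured 2.22, 2.42 and -1.37 in mock against 0.68, -0.95 and -0.71 in TRIM58-WT, and was then 6.26-fold lower (-2.65 ± 0.51, adjusted p = 0.0287). IRF1, which binds class I promoters after interferon, was 2.72-fold lower (-1.44 ± 0.28, adjusted p = 0.0291). In HCC827 none of 15 regulators was called (median 0.20). CIITA, the class II transactivator, passed the background call on no array.

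Interferon-stimulated genes outside antigen presentation had the lowest median in A549 of the pathway lists. Of 14 on the array, 7 were tested in A549, with a median of -3.12, and OAS1, which makes the activator of RNase L, was the 1 called. OAS1 measured 3.22, 3.47 and 1.11 in mock and passed the background call on none of the TRIM58-WT arrays, which made it at least 28.8-fold lower there (adjusted p = 0.0108 from the measured means of 2.60 and -2.56). Mock replicate 3, though lower than the other mock replicates, was above all TRIM58-WT replicates for OAS1. ISG15 measured 7.53, 7.62 and 2.95 in mock against 4.38, 3.27 and 3.33 in TRIM58-WT (-2.37 ± 1.25, adjusted p = 0.304). IFIT1, which binds foreign RNA caps, measured 5.44, 5.90 and -0.02 against 1.52, 0.20 and 0.25 (-3.12 ± 1.54, adjusted p = 0.273). For both, mock replicate 3 was the lowest of the 6 replicates, as it was for PSMB8 and PSMB9. Without mock replicate 3 the median was -5.01 and 6 of the 7 genes were called lower, where 5.24% of all probes were, among them IFIT1 (32.3-fold, adjusted p = 0.00321) and ISG15 (15.1-fold, adjusted p = 0.00367). In HCC827 none of 11 was called, the median was 0.70, and 9 of the 11 were higher in TRIM58-WT, with MX1 at 1.23 ± 0.25 (adjusted p = 0.111).

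**Figure D4:**
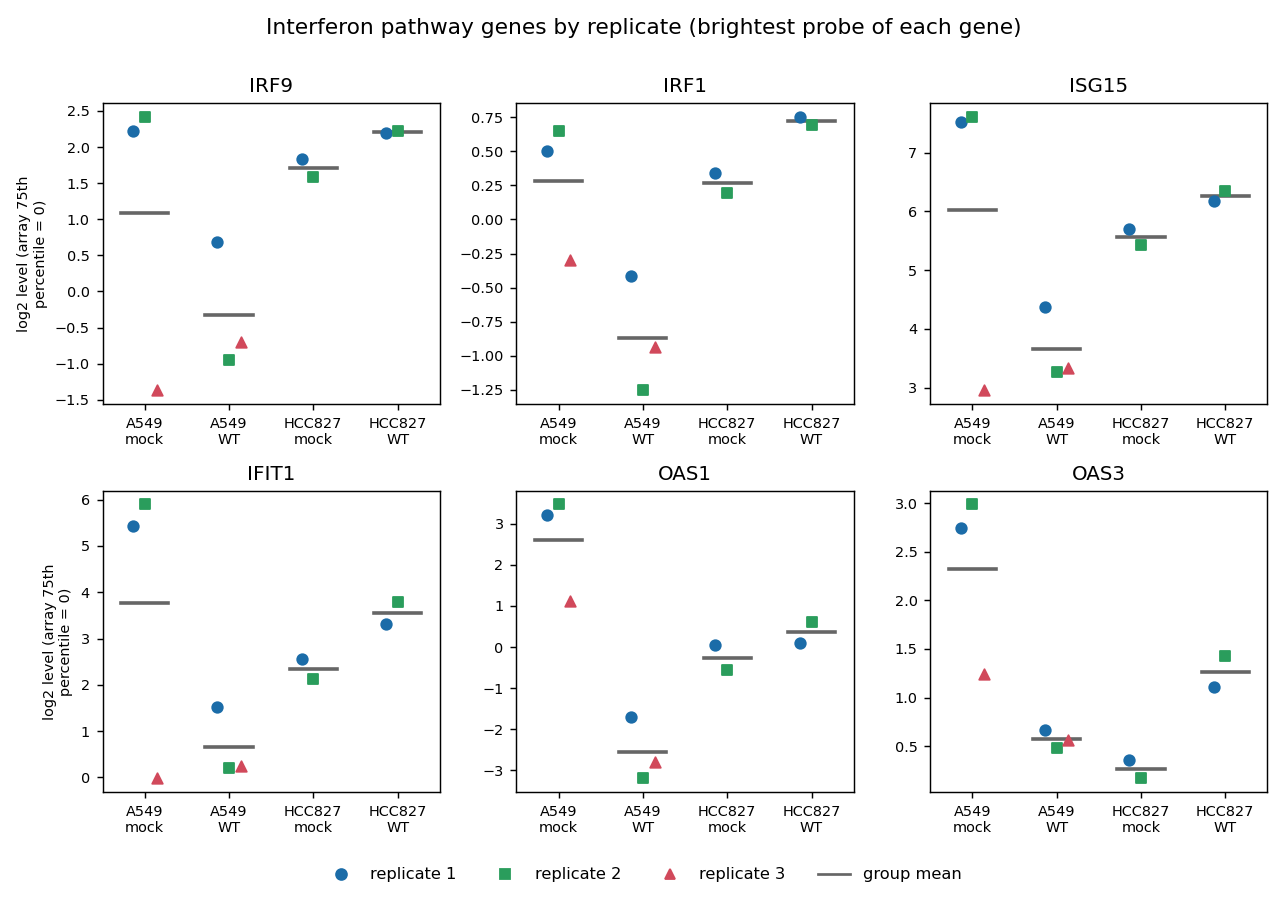
Each point is 1 replicate of the group on the x axis (WT is TRIM58-WT), the y axis gives the log2 level with the array's 75th percentile at 0 (the scale differs between panels), and lines mark group means of 6 interferon pathway genes chosen after their values were seen. As for the class I genes, mock replicates 1 and 2 of A549 are high and mock replicate 3 lies below the TRIM58-WT replicates for IRF9, ISG15 and IFIT1, but above all of them for IRF1, OAS1 and OAS3.

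Among other class I and class I-like genes, FCGRT, the neonatal Fc receptor that recycles antibodies, was the only one of 9 called in A549. It measured 2.20, 2.25 and 2.38 in mock against 4.80, 4.07 and 4.29 in TRIM58-WT, 4.32-fold higher (2.11 ± 0.22, adjusted p = 0.00487), with mock replicate 3 level with the other mock replicates. It was also called without that replicate, as was PROCR, the endothelial protein C receptor (2.52-fold higher, adjusted p = 0.0105). The list's median was -0.07, and -0.59 without mock replicate 3, with 6 of the 9 lower in both. HLA-F measured 5.01, 5.17 and 2.46 in mock against 4.31, 2.88 and 2.95 in TRIM58-WT, and HLA-G 6.23, 6.47 and 3.76 against 5.33, 3.82 and 4.16. Neither was called with all replicates (-0.83 ± 0.80, adjusted p = 0.573, and -1.05 ± 0.78, 0.47) or without mock replicate 3 (-1.71 ± 0.47, adjusted p = 0.0717, and -1.91 ± 0.47, 0.0524). These probes may read transcripts of several class I genes, since the genes are alike in sequence and differ between people, and which alleles the lines carry was not analysed here. In peptide loading and trimming, none of 9 tested genes was called in A549 (median -0.43, 7 lower) and none of 10 in HCC827 (median 0.28). Without mock replicate 3, the median was -0.52 and LNPEP, an aminopeptidase, was the 1 called in A549 (2.31-fold lower, adjusted p = 0.0433). Among the other proteasome subunits and activators, none of 9 was called in either line (median -0.23 in A549 and -0.17 in HCC827), nor without A549 mock replicate 3 (median -0.25). PSMB10, the third inducible catalytic subunit, measured 5.94, 5.74 and 6.15 in A549 mock and 5.28, 5.97 and 5.92 in TRIM58-WT, without the low mock replicate 3 seen for PSMB8 and PSMB9. None of 10 interferon receptors and kinases was called in either line (median -0.33 in A549 and 0.02 in HCC827), nor without A549 mock replicate 3 (median -0.28). Of 10 class II genes, 3 were tested in HCC827, and all 3 were lower in TRIM58-WT (median -2.34). HLA-DRB1 was the 1 called, beside 0.885% of all probes. It measured 1.24 and 1.20 in mock against -1.23 and -1.03 in TRIM58-WT, 5.09-fold lower (-2.35 ± 0.14, adjusted p = 0.0288). HLA-DMB measured 0.90 and 0.66 against -1.90 and -1.23 and was not called. HLA-DRB5, a class II gene outside the list, was also called lower by limma (-2.76, adjusted p = 0.0288).

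In the mock cells, 4 of 10 loading and trimming genes were called lower in HCC827 than in A549 (SPPL2A, CANX, TAPBP and HSPA5, from 2.38-fold to 4.86-fold), beside 14.1% of all probes called lower. TAPBP, or tapasin, bridges class I chains to the TAP transporter and was 2.38-fold lower (-1.25 ± 0.19, adjusted p = 0.00506). IFNGR1, the ligand-binding chain of the interferon gamma receptor, was 4.78-fold lower (-2.26 ± 0.54, adjusted p = 0.0229). HFE was not well above background on the HCC827 mock arrays and was at least 4.5-fold lower there (measured means -1.06 and -4.73, adjusted p = 0.000659). RFXAP, a subunit of the factor that binds the X box, failed the background call in A549 mock and was at least 2.45-fold higher in HCC827 (measured means -3.48 and -1.48, adjusted p = 0.0398). Without A549 mock replicate 3, all of these 7 genes were still called in the same direction.

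Over all 10 replicates, the genes most like the mean of the 9 genes (each centred on its own mean) were IRF9, PARP9, HLA-G, ARFGAP3 and VPS26C, with Pearson's r from 0.983 to 0.994 among 9530 genes well above background on all arrays. The 10 points share cell lines and the low A549 mock replicate 3, so the values are a description. The correlation of each gene with the mean of the other 8 was 0.96 for HLA-C, 0.95 for HLA-B and PSMB9, 0.94 for PSMB8, 0.93 for B2M, 0.84 for TAP2 and 0.75 for HLA-E. It was 0.44 for NLRC5 and 0.11 for TAP1, which was the only one of the 9 genes with its lowest mean in HCC827 mock. The mean of the 9 centred levels was 0.60, 0.75 and -1.06 in A549 mock replicates 1, 2 and 3, and -0.29, -1.0 and -0.93 in TRIM58-WT. It was 0.39 and 0.41 in HCC827 mock and 0.54 and 0.58 in HCC827 TRIM58-WT.

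HLA-B, HLA-C, HLA-E, TAP1, TAP2, PSMB8 and PSMB9 lie on chromosome 6, where TAP2, PSMB8, TAP1 and PSMB9 follow one another directly and HLA-C and HLA-B are neighbours among coding genes. B2M lies on chromosome 15 and NLRC5 on chromosome 16. The 56 other tested genes between the outermost of the chromosome 6 genes had a median difference of 0.15 in A549, with 1 called higher (LY6G5C) and 1 lower (LTB), and the median over 578 genes of chromosome 6 was 0.05. Without mock replicate 3 the median of the 56 was 0.24, again with 1 called in each direction, and that of the 578 was 0.08.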

How the data were processed

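RNA of A549 and HCC827 transfectants was hybridised in 1 colour to 11 Agilent SurePrint G3 arrays. The authors deposited spot intensities from Agilent Feature Extraction (version 11.5.1.1 per the file headers, 10.7 per the labels), with background subtracted and no scaling between arrays. They also deposited a log2 table, used here as an alternative. Its column medians run from -0.125 to 0.46, and 95.5% of its values lay within 0.01 of the values below once 1 baseline per probe was removed. What that baseline is stays unknown.

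Control and outlier spots were left out, spots were averaged per probe, and log2 values were set relative to the 75th percentile of the array over 42405 probes (R 4.3.3). The background call of a probe needed over 0.5 of its spots, as a share, to pass. Mock arrays 1-1 and 1-2, from the same control cells by the labels, were averaged. Testing (lmFit and eBayes of limma 3.58.1, with Benjamini-Hochberg adjustment over all probes tested) took probes that passed this call throughout either group and had no missing value. Calls needed an adjusted p under 0.05 and at least a 2-fold change, or the adjusted p alone for differences between lines. The methods name this adjustment and both limits. Values after ± are standard errors. A fold given as "at least" puts the brighter mean over the mean, per array, of the higher of the probe's signal and the dimmest signal that passed the call. Precision is limited by how few arrays there are.

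A RefSeq accession was held by 28302 probes, and a GRCh38.p14 table, which also gave chromosomes and promoters, named 27241. The array was designed on another build, so gene coordinates are not given. The brightest probe over the 10 replicates stood for a gene. All probes of the class I presentation genes are named, and from other lists called genes, up to 5 for each list and comparison by size of change. Other genes were chosen after their values were seen, and some genes of the lists are not reported here. The class I presentation genes and all lists were chosen with earlier results of these data known. Alternatives were other normalizations, filters and fits, replicate number and slide as blocks, each replicate left out, a plain t-test, and TRIM58-WT replicates 2 and 3 averaged (chosen after the data had been seen). Fits were tested on simulated data. Plots used matplotlib 3.10.9 under Python 3.11.15.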

Additional observations from a re-analysis of the deposited data

Results flagged for a closer look

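The change from mock to TRIM58-WT differed between the lines for 3 genes of the pathway lists, by the linear contrast of the HCC827 change minus the A549 change. FCGRT gave -2.89 on the log2 scale (adjusted p = 0.0038), since it was higher in TRIM58-WT in all 3 A549 replicates and lower in both HCC827 replicates. OAS1 gave 5.77 (adjusted p = 0.0198), and no TRIM58-WT array of A549 had it well above background, so that this value has no settled size. HLA-DRB1 gave -2.49 (adjusted p = 0.0043), with lower values in both HCC827 TRIM58-WT replicates, and was well above background on 2 of 4 mock and 1 of 3 TRIM58-WT arrays of A549. No gene of class I presentation itself differed between the lines at this threshold with all replicates.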

How the results depend on the processing

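In A549 all 161 alternative values of the 8 genes kept their negative sign, and 12 of them became calls. The number of genes called rose from 0 to 1 with the median shift as scaling (HLA-B, adjusted p = 0.0494) and to 1 with the mock arrays separate, with the slide block and with all groups in 1 fit (TAP1), and to 4 within slide 1. With 1 replicate left out it was 4 without mock replicate 3 and 0 without any other replicate. Probes called, 1171 as reported, were 507 with normexp, 609 with no filter, 673 with probes above background on every array, 1802 with the slide block, 24 with the t-test, 2200 within slide 1, 676 within slide 2, 333 with TRIM58-WT replicates 2 and 3 averaged, and 301 to 1956 with 1 replicate left out (1956 without mock replicate 3, 302 and 360 when mock replicate 1 or 2 was missing, and 369 and 301 when TRIM58-WT replicate 2 or 3 was). The median shift moved the median of all probes from 0.06 to -0.31 and the share of calls that were higher from 50.5% to 25.6%. HLA-B was then at -2.07 and PSMB9 at -0.83.

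In HCC827 no gene was called under any alternative run. Probes called, 173 as reported, were 650 with the median shift (46.2% higher, against 32.9%), 102 with normexp, 367 with probes above background on every array, and 0 to 826 with 1 replicate left out. With no filter, with the replicate block, with the t-test and without mock replicate 1 they were 0, where limma or the t-test gave 4371, 3840, 1500 and 2576 probes at an unadjusted p under 0.05. PSMB8 turned to 0.084 when mock replicate 2 was left out and to 0.040 when TRIM58-WT replicate 1 was, HLA-C to 0.047 likewise, and HLA-B to -0.37 on its other probe. With 1 replicate left out HLA-C ran from -0.26 to 0.047 and PSMB8 from -0.31 to 0.084. Between the mock cells the ranges were -0.83 to 0.35 for HLA-B, -0.032 to 1.18 for HLA-C and -0.33 to 0.77 for B2M, and for the difference between lines -0.10 to 0.56 for NLRC5 and -0.048 to 0.68 for PSMB9.

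Between the mock cells, probes called (5905) were 3045 with normexp, 3434 with probes above background on every array and 3835 to 6399 with 1 replicate left out. Genes called (1) were 0 with the median shift and with no filter, 2 with the replicate block and with all groups in 1 fit, 3 within slide 1, and 0 to 2 with 1 replicate left out. With normexp TAP1 lost its call (adjusted p = 0.051) and TAP2 gained one (0.0347). HLA-B turned to 0.011 with quantile normalization, 0.020 with normexp, 0.57 on its other probe, 0.27 without A549 mock replicate 1, 0.35 without A549 mock replicate 2 and 0.27 without HCC827 mock replicate 1. HLA-C and B2M turned to -0.032 and -0.33 with the replicate block and without A549 mock replicate 3, and to -0.051 and -0.34 with the slide block and within slide 1.

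For the difference between lines, probes called (794) were 526 with the median shift (72.1% higher, against 52.6%, with the median of all probes at 0.34), 450 with no filter, 394 with probes above background on every array, 322 with the replicate block, 1352 with the mock arrays separate, 1681 with the slide block, 425 with TRIM58-WT replicates 2 and 3 averaged and 208 to 2084 with 1 replicate left out, where genes called ran from 0 to 3. NLRC5 turned to -0.062 without A549 mock replicate 1, -0.066 without A549 mock replicate 2 and -0.10 without A549 TRIM58-WT replicate 1, and PSMB9 to -0.048 without A549 mock replicate 2.

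Same-numbered samples deviated together for A549 replicates 1 and 3 (r = 0.592 and 0.588) but not for replicate 2 (-0.488) or in HCC827 (0.0974), so the numbers were not taken to pair the samples, and the replicate block gave 1122 probes and 0 genes in A549. The causes of these changes were not tested. HLA genes are alike in sequence and their probes may read more than 1 of them. Dim probes such as those of NLRC5 limit what can be said in A549.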
